A study of Mus musculus with 16 samples.

Results

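The cyclins, the cyclin-dependent kinases (CDKs), their inhibitors, the E2F transcription factors and the retinoblastoma family of pocket proteins were followed in the mouse embryonic gonad. Members were chosen by gene symbol: cyclins A, B, D, E, F, G and H, and every symbol made of Cdk and a number alone. The Cdkn1, Cdkn2 and Cdkn3 genes, the E2f genes, Rb1, Rbl1 and Rbl2 were also members. Cdkn1c and Ccnb3 were left out by the rule. It found 48 genes among 18193 genes whose probe sets carried a single symbol, and each gene was read from its probe set with the highest mean. Of these, 45 were bright enough to be tested, among 12336 tested genes in all. Ccna1 (4.79 to 9.04 over the 16 arrays), Cdkn2a (2.91 to 8.72) and E2f4 (5.01 to 9.50) did not exceed the array median in at least 2 arrays. Ccnb1 was not analysed here.

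Cyclins are the regulatory partners that switch CDKs on, and successive cyclins drive a cell from growth through DNA synthesis into division. D-type cyclins with Cdk4 or Cdk6, and then E-type cyclins with Cdk2, phosphorylate the pocket proteins, which releases E2F factors to transcribe genes of the S phase. CDK inhibitors of the CIP/KIP and INK4 families hold this step back. In the mouse gonad germ cells of the ovary leave mitosis and enter meiosis over the stages studied, and germ cells of the testis enter mitotic arrest.

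RNA from whole embryonic gonads was hybridised to 16 Affymetrix Mouse430_2 arrays. The 8 groups of 2 arrays were wild-type ovary, Wnt4 knock-out ovary, wild-type testis and Wnt4 knock-out testis, each at embryonic day 12.5 (E12.5) and embryonic day 14.5 (E14.5). Wnt4 encodes a secreted signalling protein needed for ovary development. Replicates are labelled biological, while strain, the design of the knock-out allele and any pooling of embryos were not given in the labels. P-values therefore measure the spread among these 16 arrays, part of which may be technical. Titles of male samples carry the word ovary and their source says testis. They were taken as testis, and a list of 8 Sertoli cell genes summed to 4210 to 6266 in these arrays against 306 to 2051 in the ovary arrays. Intensities below are linear probe-set values as deposited, and changes are differences of log2(intensity + 4) with their standard error (SE).

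Mean intensity per array lay between 272 and 288, and precision is limited by the number of arrays. Wnt4 read lower in both knock-out arrays than in both wild-type arrays in each gonad and stage, although in the E12.5 ovary the nearest pair read 839 and 844. RNA of the opposite sex was estimated at 18.9% and 7.82% in the wild-type ovary arrays of E12.5 and at 18.7% in knock-out ovary replicate 2 of E12.5. At E14.5 it was 20.8% in wild-type ovary replicate 2, 22.9% in wild-type testis replicate 2 and 16.6% in knock-out testis replicate 2, and at most 1.45% in every other array. The ratio of 3' to 5' signal of control transcripts was 1.76 in wild-type ovary replicate 2, 2.27 in knock-out ovary replicate 1 and 1.76 in knock-out testis replicate 1, all of E12.5, and 1.06 to 1.36 in the other arrays. The arrays of wild-type testis at E12.5 were almost identical, with an SD of log2 differences of 0.142 against 0.335 to 0.592 in the other groups. In whole gonads, fewer cells of a type and less RNA per cell cannot be told apart.

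Most members were steadily present, and few passed the test in any 1 comparison of 2 groups. Over 14 contrasts of stage, sex, genotype and the interaction of sex with stage, 7 members gave 10 calls (limma, Benjamini-Hochberg adjusted p under 0.05 over 12336 genes). Between E12.5 and E14.5 the members called were 6 of 45 in knock-out ovary, where 13.7% of all genes were called. Ccnd1 was the member called in wild-type ovary (4.32% of all genes) and Cdk5 in wild-type testis (10.5%). None was called in knock-out testis, where 3.89% of all genes passed. At an unadjusted p under 0.05 were 10 members there (16.3% of all genes). In the comparison of testis with ovary at E14.5, Cdk5 was called in wild type (3.83% of all genes) and Ccne2 in knock-out (5.3%). At E12.5 limma called no member in wild type (0.608% of all genes) or in knock-out (1.07%). At an unadjusted p under 0.05 were 11 members (16.7% of all genes) and 14 members (19.1%).

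**Figure D1:**
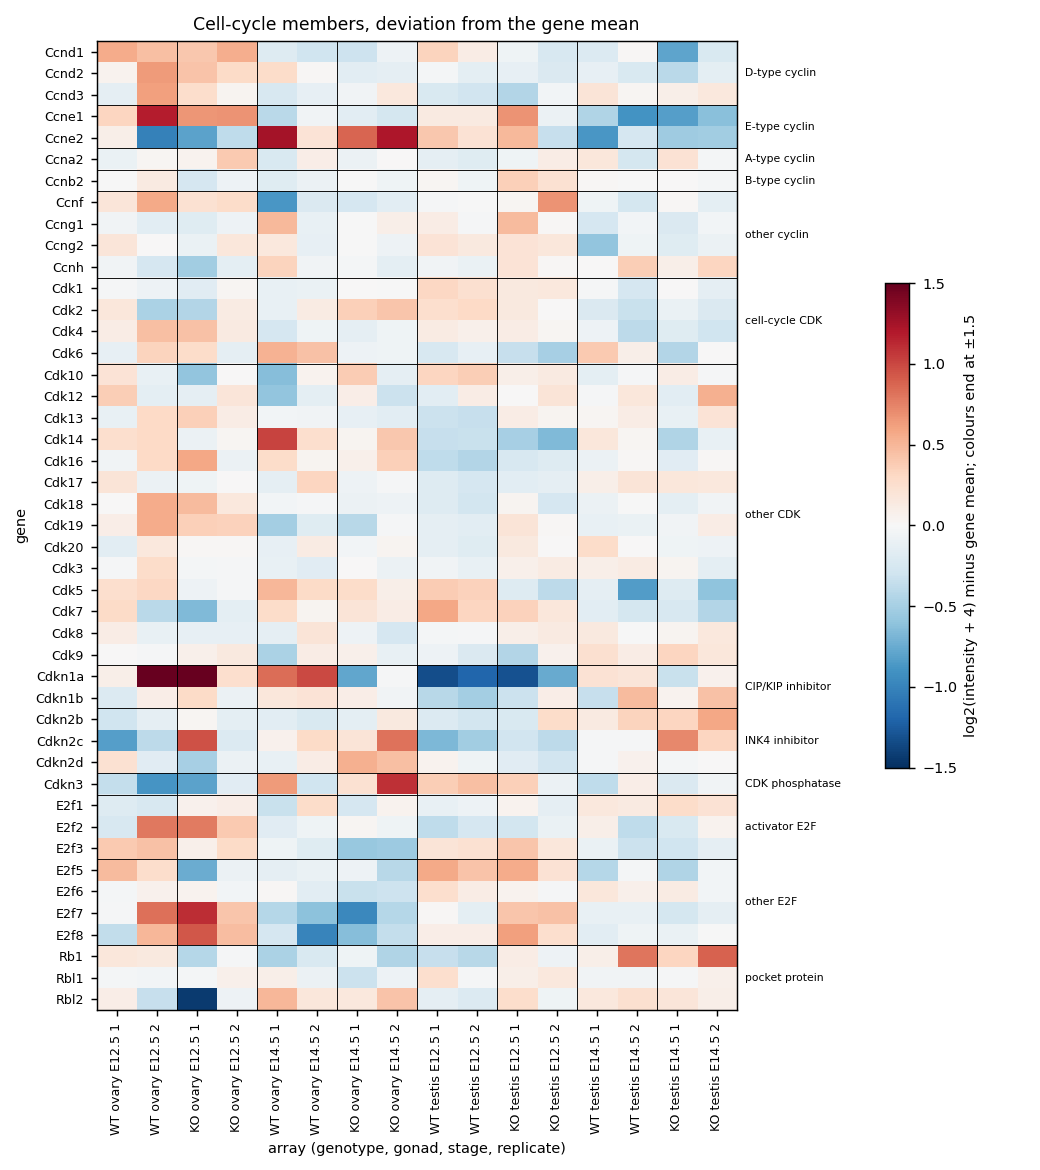
Deviation of each tested member from its own mean over the 16 arrays, on the scale of log2(intensity + 4), with genes in rows ordered by role and arrays in columns. Colours end at 1.5 in either direction. Ccne2 is above its mean in all 4 ovary arrays of E14.5, Cdkn1a is below its mean in all 4 testis arrays of E12.5, and Ccna2, Ccnb2 and Rbl1 stay pale throughout.

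Since the design has 2 arrays per group, changes were also averaged over wild type and knock-out, which gives 4 arrays on each side. These 5 averaged comparisons were chosen after the values had been seen. In the ovary 11 of 45 members changed with stage, 3 up and 8 down (23.3% of all genes were called, 9.42% up and 13.9% down). In the testis 10 changed, 4 up and 6 down (18% of all genes, 10.4% up and 7.64% down). Between testis and ovary 4 members passed at E12.5 (5.54% of all genes), of which Cdk18 entered the test only through 2 early ovary arrays, and 4 at E14.5 (12.9% of all genes), and the stage change itself differed between the gonads for 5 members (10.2% of all genes). The members' shares, 24.4%, 22.2%, 8.89%, 8.89% and 11.1%, lay near those of all genes, and the results below are about single genes.

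Counting the almost identical wild-type testis arrays of E12.5 as 1 sample left 10 members called in the ovary, none in the testis (limma adjusted p from 0.0512 for E2f5 upward among the 10), 1 for sex at E12.5, 3 for sex at E14.5 and 2 for the difference of stage changes (Ccne2 and Cdk7). The testis stage calls below rest on taking these arrays as 2 samples, while their fold changes were the same either way. Without the 3 arrays with high 3'/5' ratios, 6 members were called in the ovary, of which Ccnd1, Ccne1, Ccne2, E2f3 and E2f7 were among the 11, and none was called for sex at E12.5 or for the difference of stage changes. Without the E14.5 arrays that held opposite-sex RNA, 3 were called in the testis, 2 for sex at E14.5 and 2 for the difference of stage changes. Without the high-ratio arrays, the early ovary rests on wild-type replicate 1 and knock-out replicate 2, which held 18.9% and 18.7% male RNA. No setting left out together the E12.5 arrays that held opposite-sex RNA. For early ovary values given below without the high-ratio arrays, RNA quality and male RNA therefore cannot be told apart. The part of RNA quality and of opposite-sex RNA in the changes was not tested beyond these values. Shares of all genes called under these settings are not given here, so the counts of members are not set against them.

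**Figure D2:**
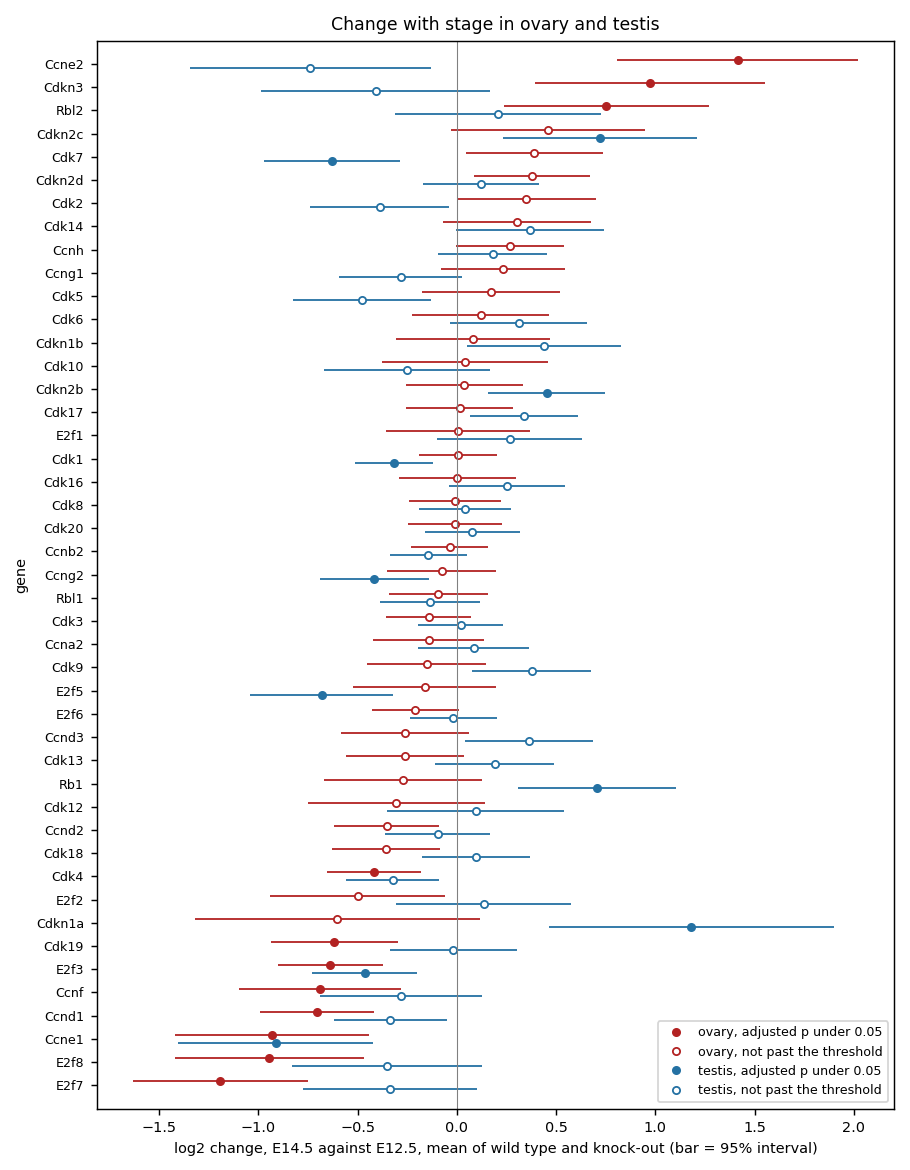
Log2 change from E12.5 to E14.5 of the 45 tested members, averaged over wild type and knock-out, in ovary (red) and testis (blue), ordered by the ovary change. Bars are 95% intervals and filled points passed the adjusted threshold. Ccne2 lies farthest to the right in the ovary at 1.41 and on the left in the testis at -0.74, while Ccne1 and E2f3 lie on the left in both.

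Ccnd1, the D-type cyclin that starts the response to growth signals, fell in the ovary. It read 1438 and 1334 in wild-type and 1293 and 1424 in knock-out ovary at E12.5, and 856 and 791 in wild-type and 790.2 and 929 in knock-out ovary at E14.5. Every E14.5 ovary array lay below every E12.5 ovary array. The log2 change was -0.75 (SE 0.19, limma adjusted p = 0.0382) in wild type, -0.66 (SE 0.19, adjusted p = 0.0349) in knock-out and -0.70 (SE 0.13, 1.63-fold, adjusted p = 0.00254) averaged. Each single-genotype call was lost without any 1 of its 4 arrays, with changes between -0.80 and -0.69 in wild type and between -0.78 and -0.54 in knock-out. The averaged call held without any 1 of the 8 arrays. In the testis Ccnd1 went from 1233 and 1054 to 845 and 988 in wild type and from 934 and 825 to 565 and 834 in knock-out, so that the knock-out arrays overlapped. That change averaged -0.33 (adjusted p = 0.0968), and the difference between the gonads was 0.37 with a 95% interval of -0.03 to 0.77. The 2 other Ccnd1 probe sets changed in the ovary by -1.16 and -0.98.

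The related D-type cyclins gave less. Ccnd2 read 2554, 3841, 3321 and 2990 in the ovary arrays of E12.5 and 2120 to 2406 in the testis arrays of that stage, a testis difference of -0.48 (limma adjusted p = 0.0413). The 2 highest of these arrays, wild-type replicate 2 and knock-out replicate 1, were those with high 3'/5' ratios. Without the 3 high-ratio arrays the difference was -0.32 (adjusted p = 0.361). Its 7 probe sets disagreed on the ovary's stage change, from -0.95 to 1.40. Ccnd3 lay between 1113 and 2319 and passed no test.

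The E-type cyclins, which partner Cdk2 at entry into S phase, moved in different ways. Ccne2 rose in the ovary. It read 579 and 267 in wild-type and 309.6 and 418 in knock-out ovary at E12.5, and 1299 and 629 in wild-type and 1001 and 1269 in knock-out ovary at E14.5. All 4 late ovary arrays lay above all 4 early ones. In the testis it read 723 and 636 in wild-type and 763 and 427 in knock-out arrays of E12.5, and 295 and 455 in wild-type and 374.5 and 379 in knock-out arrays of E14.5. In each genotype both late testis arrays lay below both early ones, the opposite direction to the ovary.

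The averaged Ccne2 change was 1.41 in the ovary (SE 0.28, 2.67-fold, limma adjusted p = 0.00379). It was 1.64 in knock-out ovary (adjusted p = 0.0189, lost without early replicate 1 or either late replicate, with changes between 1.42 and 1.85) and 1.19 in wild-type ovary, which did not pass (adjusted p = 0.125). In the testis it was -0.74 (SE 0.28, adjusted p = 0.088). The stage change of the testis minus that of the ovary was -2.15 (SE 0.40, adjusted p = 0.00828), and this call held without any 1 of the 16 arrays. Within single genotypes that difference was -2.07 in wild type (adjusted p = 0.124) and -2.23 in knock-out (adjusted p = 0.070), neither past the threshold. Limma called no member for this difference in wild type (0.162% of all genes) or in knock-out (1.28%), with 8 and 7 members at an unadjusted p under 0.05 (18.1% of all genes in both). At E14.5 the testis arrays lay below every ovary array, with an averaged difference of -1.43 (2.70-fold, adjusted p = 0.00429) that held without any 1 of the 8 arrays. In knock-out alone it was -1.57 (adjusted p = 0.0359), lost without any 1 of its 4 arrays, with differences between -1.74 and -1.40.

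The lowest late ovary array for Ccne2, wild-type replicate 2, was the one with 20.8% male RNA, and the lowest early ones, wild-type replicate 2 and knock-out replicate 1, were those with high 3'/5' ratios. Without the arrays of E14.5 with more than 10% opposite-sex RNA the difference of stage changes was -2.57 (limma adjusted p = 0.00967). Without the 3 high-ratio arrays it was -1.56 (adjusted p = 0.0726), and the ovary's rise was 1.03 (adjusted p = 0.0423). Ccne2 rests on 1 probe set.

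Ccne1 fell in both gonads. It read 154 and 283.5 in wild-type and 197 and 198 in knock-out ovary at E12.5, and 91.7 and 118.5 in wild-type and 109 and 101.3 in knock-out ovary at E14.5. In the testis it went from 136 and 135 to 88.6 and 64.1 in wild type and from 198 and 115 to 67.8 and 77.8 in knock-out. No late array of a gonad reached an early one of the same gonad. The averaged changes were -0.93 in the ovary (SE 0.23, limma adjusted p = 0.0114) and -0.91 in the testis (SE 0.23, adjusted p = 0.0148). They differed by 0.02, with a 95% interval of -0.67 to 0.71. The ovary's call held without any 1 array and the testis call was lost without either wild-type early array, knock-out early replicate 1, wild-type late replicate 2 or knock-out late replicate 1, with changes between -1.11 and -0.72. A second, dimmer Ccne1 probe set changed by -0.665 and -0.268.

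**Figure D3:**
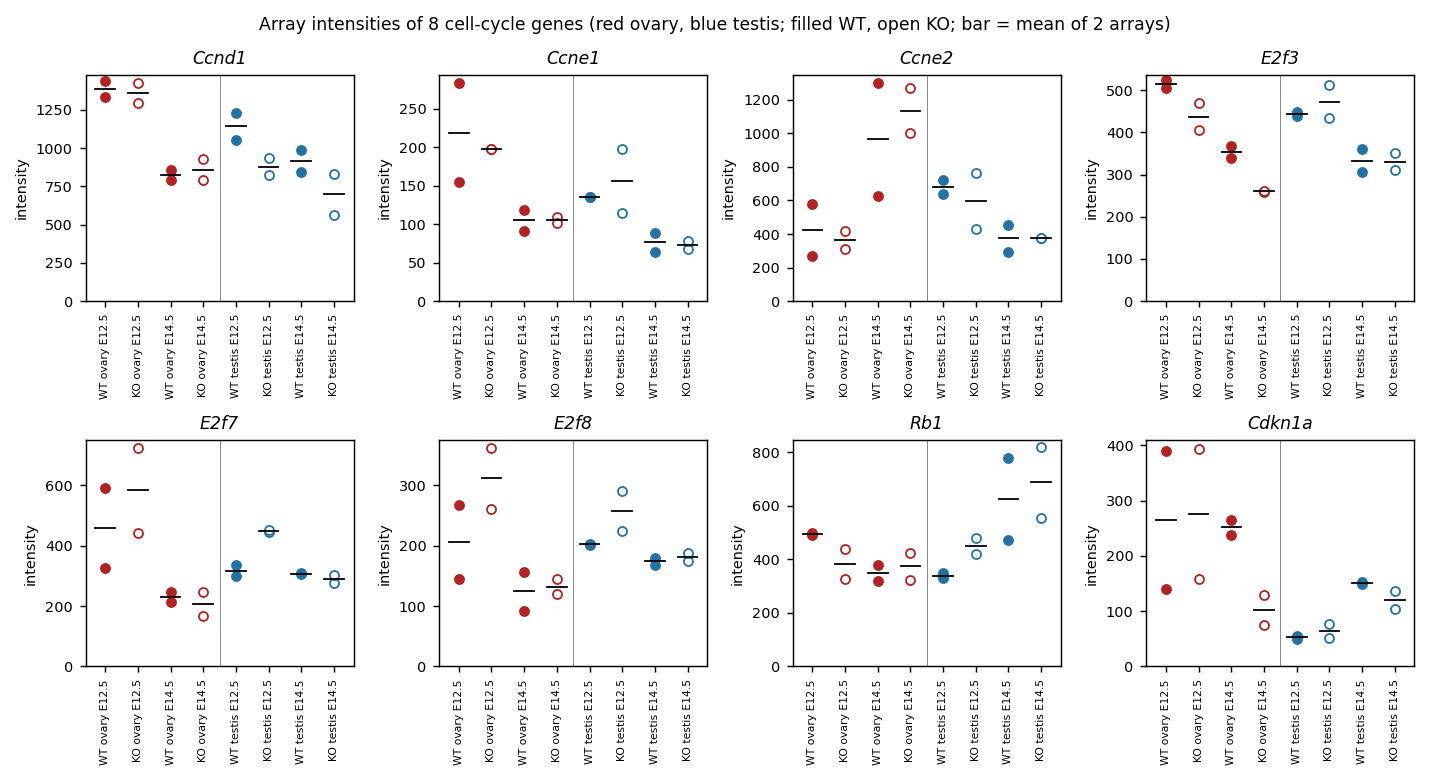
Linear intensities of 8 members in every array (points) with the mean of the 2 arrays of a group (bars), ovary in red and testis in blue, filled for wild type and open for Wnt4 knock-out. Ccne2 rises with stage in the ovary groups and falls in the testis groups, Ccnd1 and E2f7 drop in the ovary, and Rb1 has its highest means in the late testis groups, where the arrays of a group lie far apart.

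Of the cyclins that act with Cdk1 and Cdk2 in later phases, Ccna2 and Ccnb2 passed no test. Ccna2, the A-type cyclin of S and G2 phase, lay between 875 and 1376, and Ccnb2, a B-type cyclin of mitosis, between 1101 and 1682. Each was tested 19 times, and their averaged stage changes were -0.14 and 0.09 for Ccna2 and -0.04 and -0.14 for Ccnb2, in ovary and testis. Ccnf, the F-box subunit of a ubiquitin ligase, fell in the ovary by an averaged 0.69 (limma adjusted p = 0.0203). That call was lost without early wild-type replicate 2, early knock-out replicate 1 or late replicate 1 of either genotype, with changes between -0.85 and -0.52. Ccng2, a cyclin linked to cell cycle arrest, had an averaged testis change of -0.42 (adjusted p = 0.0393), which was lost without any array but wild-type replicate 2 of E14.5, with changes between -0.55 and -0.28. Its second probe set changed by 1.25 in the ovary, where the first changed by -0.08. Ccng1, a target of p53, and Ccnh, the partner of Cdk7, passed no test. The Ccng1 set used had an averaged ovary change of 0.23, while its dimmer sets changed by 1.52 and 1.66. The stage change of the testis minus that of the ovary was -0.52 in the set used and -1.53 and -2.02 in the dimmer ones. These dimmer sets were not tested singly.

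Among the CDKs of the cell cycle, Cdk4, the partner of D-type cyclins, fell slightly in the ovary. Its early arrays read 3491, 4448, 4400 and 3568 and its late arrays 2713, 3090, 2949 and 3090, with wild type first. The groups did not overlap, and the averaged change was -0.42 (SE 0.11, limma adjusted p = 0.0158). Its highest arrays were those with high 3'/5' ratios, and without the 3 high-ratio arrays the change was -0.26 (adjusted p = 0.179). The call was also lost without early wild-type replicate 2, early knock-out replicate 1 or late replicate 1 of either genotype, with changes between -0.51 and -0.33 over left-out arrays. All 3 Cdk4 probe sets changed downward, by -0.34 to -0.54 in the ovary and -0.32 to -0.44 in the testis, where the test was not passed (adjusted p = 0.056). Cdk1, the kinase of mitosis, changed by -0.32 in the testis (adjusted p = 0.0292) and by 0.00 in the ovary, and the difference between the gonads did not pass (adjusted p = 0.111). The testis call held without replicate 1 of either late group and was lost without any 1 of the 6 other testis arrays, with changes between -0.38 and -0.26. Without the E14.5 arrays that held opposite-sex RNA the testis change of Cdk1 was -0.22 (adjusted p = 0.235). Cdk2 and Cdk6 passed no test.

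Cdk5, an atypical CDK best known from neurons, was the kinase called in single genotypes. In wild-type testis the early arrays read 511 and 498 and the late arrays 356 and 218, a change of -0.85 (SE 0.23, limma adjusted p = 0.0312) that was lost without either early array or late replicate 2, with changes between -1.20 and -0.50. Ovary arrays of E14.5 read 556 and 480.0 in wild type and 473 and 416 in knock-out, above the 342 and 256 of knock-out testis. The testis difference at E14.5 was -0.88 in wild type (adjusted p = 0.0489), lost without either ovary array or testis replicate 2, with differences between -1.23 and -0.53. It was -0.73 averaged (adjusted p = 0.00867), which held without any 1 array. The array at 218 was the one with 22.9% female RNA and that at 256 held 16.6%. Without such arrays the averaged difference was -0.50 (adjusted p = 0.0822) and the change in wild-type testis -0.50 (adjusted p = 0.231). Knock-out testis already read 342 and 298 at E12.5.

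Cdk7, the kinase that activates other CDKs and is part of transcription factor IIH, gave a contrast that its probe sets did not share. Its brightest set went from 1184, 729.6, 609 and 875 to 1179, 999, 1113 and 1044 in the ovary, wild type first, a change of 0.39 (adjusted p = 0.0902). In the testis it went from 1447, 1213, 1232 and 1093 to 868, 810.4, 821 and 713, a change of -0.63 (limma adjusted p = 0.0164) that was lost without replicate 1 of either early group or replicate 2 of either late group, with changes between -0.69 and -0.56. At E12.5 the testis exceeded the ovary by 0.59 (adjusted p = 0.0488), a call lost without any 1 of 6 of the 8 arrays (0.41 to 0.76 over left-out arrays), and the mean over probe sets was 0.05 (adjusted p = 0.788). Without the 3 high-ratio arrays that difference was 0.24 (adjusted p = 0.597), and without the E14.5 arrays that held opposite-sex RNA the testis change was -0.55 (adjusted p = 0.138). The difference of stage changes was -1.02 (adjusted p = 0.018). The next brightest Cdk7 set gave 0.44 for the same difference, and the mean over kept sets was -0.11 (adjusted p = 0.668). Cdk19, a kinase of the Mediator complex, had an averaged ovary change of -0.62 (adjusted p = 0.0106), lost without knock-out replicate 1 of E14.5 (-0.50 to -0.73 over left-out arrays), and its second set changed by 0.08. Cdk18, between 4.71 and 11.5, was near the lowest intensities tested. It exceeded the median of its array in 2 arrays only, wild-type replicate 2 and knock-out replicate 1 of the early ovary at 11.5 and 10.6, which are arrays with high 3'/5' ratios, and the next highest read 7.72. It thus entered the test through the group in which it was high, and its testis difference of -0.47 at E12.5 is given as a description. The transcriptional and other kinases Cdk3, Cdk8, Cdk9, Cdk10, Cdk12, Cdk13, Cdk14, Cdk16, Cdk17 and Cdk20 passed no test.

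Cdkn1a (p21), the CIP/KIP inhibitor induced by p53, was low in the early testis. It read 49.7 and 55.5 in wild-type and 50.7 and 75.9 in knock-out testis at E12.5, against 139.9 and 389.5 in wild-type and 393 and 158 in knock-out ovary. Each testis array lay below each ovary array. The averaged difference was -2.01 (SE 0.33, 4.02-fold, limma adjusted p = 0.00772), and it held without any 1 of the 8 arrays. Within genotypes it was -2.07 in wild type (adjusted p = 0.0686) and -1.94 in knock-out (adjusted p = 0.0653), neither past the threshold. The 2 ovary arrays near 390 were those with high 3'/5' ratios. Without the 3 high-ratio arrays the difference was -1.18 and no longer passed the threshold. The ovary arrays then left, at 139.9 and 158, held 18.9% and 18.7% male RNA. The parts of RNA quality and of male RNA in this difference cannot be told apart.

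With stage Cdkn1a rose in the testis, to 153 and 149.9 in wild type and 104 and 137 in knock-out at E14.5, an averaged change of 1.18 (SE 0.33, limma adjusted p = 0.027). It held without early knock-out replicate 2 or late knock-out replicate 1 and was lost without any other testis array, with changes between 1.04 and 1.32. Late ovary arrays read 239 and 266 in wild type and 74.6 and 129.6 in knock-out. The stage change of the testis exceeded that of the ovary by 1.78 (adjusted p = 0.0345), lost without any 1 of 11 of the 16 arrays, with differences between 1.42 and 2.14. In the late ovary the knock-out difference was -1.32 (adjusted p = 0.502). Both knock-out arrays lay below both wild-type arrays, yet the change did not pass. A second Cdkn1a probe set was near background, with a mean of 12.1. Its averaged values were 0.54 for the testis stage change and -0.24 for testis against ovary at E12.5. Cdkn1b (p27), the inhibitor of the same family that accompanies exit from the cycle, lay between 452 and 896 and passed no test. Its averaged testis change was 0.44 (adjusted p = 0.108).

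The INK4 inhibitors block Cdk4 and Cdk6. Cdkn2d (p19) rose in knock-out ovary from 305 and 406 to 628 and 595.5, a change of 0.79 (SE 0.19, limma adjusted p = 0.0187). In wild-type ovary it went from 509.5 and 384 to 399.6 and 467, with overlapping arrays and a change of -0.03. Whether the genotypes differ in this change was not tested. The knock-out call was lost without early replicate 1 or either late replicate, with changes between 0.59 and 0.99. Cdkn2c (p18) and Cdkn2b (p15) were dim, at 6.91 to 33.5 and 8.41 to 18.8. Their averaged testis changes of 0.72 (adjusted p = 0.0428) and 0.45 (adjusted p = 0.0362) were lost without any 1 of 8 and of 6 of the 8 testis arrays. Cdkn2b also gave a testis difference of 0.44 at E14.5 (adjusted p = 0.0499), lost without any 1 of the 8 arrays.

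Cdkn3, a phosphatase that acts on CDKs, rose in the ovary from 93.2 and 63.5 in wild type and 67.6 and 107.5 in knock-out to 191 and 97.9 in wild type and 143 and 262 in knock-out. The averaged change was 0.97 (limma adjusted p = 0.0203), although the late array at 97.9 lay within the early range. In the testis it was -0.41 (adjusted p = 0.318), and the gonads differed by -1.38 (adjusted p = 0.0386). Without the high-ratio arrays the ovary change was 0.68 (adjusted p = 0.20) and the difference -0.98 (adjusted p = 0.229). Leaving out single arrays gave 0.74 to 1.21 in the ovary, with the call lost without early wild-type replicate 2, early knock-out replicate 1, late wild-type replicate 1 or late knock-out replicate 2.

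E2f7 and E2f8, the atypical E2Fs that repress transcription and are themselves E2F targets, fell in the ovary. E2f7 read 327 and 591 in wild-type and 722 and 443 in knock-out ovary at E12.5, and 246 and 215 in wild-type and 168 and 246 in knock-out ovary at E14.5. All late arrays lay below all early ones. The change was -1.46 in knock-out (SE 0.29, 2.75-fold, limma adjusted p = 0.00612), -0.93 in wild type (adjusted p = 0.101) and -1.19 averaged (SE 0.20, adjusted p = 0.00144). The averaged call held without any 1 array, and the knock-out call was lost without replicate 1 of either stage, with changes between -1.81 and -1.11. E2f7 read 300 to 453 in the testis at E12.5 and 277 to 308 at E14.5, a change of -0.34 (adjusted p = 0.279). The stage changes of the gonads differed by 0.85 (adjusted p = 0.0713), which did not pass.

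E2f8 read 145 and 267 in wild-type and 362 and 261 in knock-out ovary at E12.5, and 157 and 92.3 in wild-type and 119 and 145 in knock-out ovary at E14.5. The wild-type arrays overlapped and the knock-out arrays did not. The change was -1.20 in knock-out (SE 0.31, limma adjusted p = 0.0256), -0.69 in wild type (adjusted p = 0.263) and -0.94 averaged (adjusted p = 0.00945). For both genes the 2 highest early ovary arrays were those with high 3'/5' ratios. Without the 3 high-ratio arrays the averaged change was -0.81 for E2f7 (adjusted p = 0.0165) and -0.61 for E2f8 (adjusted p = 0.0997). The knock-out call of E2f8 was also lost without early replicate 1 or either late replicate (-1.43 to -0.97), and its averaged call held without any 1 array. E2f7 and E2f8 rest on 1 probe set each.

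E2f3, an activating E2F, fell in both gonads. It read 504 and 524 in wild-type and 404 and 470.4 in knock-out ovary at E12.5, and 367 and 338 in wild-type and 258 and 262 in knock-out ovary at E14.5. The testis arrays went from 433 to 513 at E12.5 down to 306 to 359 at E14.5. No late array reached an early one in either gonad. The change was -0.74 in knock-out ovary (SE 0.17, limma adjusted p = 0.0162), -0.64 averaged over the ovary (adjusted p = 0.003) and -0.46 averaged over the testis (adjusted p = 0.0202). The knock-out call was lost without either late array (-0.85 to -0.63). The ovary average held without any 1 array, and the testis average was lost without any 1 of 5 of 8 arrays (-0.52 to -0.40). A second E2f3 probe set, with a mean of 12.3, changed by 0.11 and 0.14, and the mean over probe sets was -0.26 in the ovary (adjusted p = 0.20). E2f1 (103 to 160) and E2f2 (at most 32.2), the other activators, passed no test.

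E2f5, an E2F that works with pocket proteins as a repressor, fell in the testis. It went from 1172, 1060, 1165 and 919 at E12.5 to 586, 774, 575 and 767 at E14.5, wild-type arrays first, without overlap. The averaged change was -0.68 (SE 0.17, limma adjusted p = 0.014), and all 3 E2f5 probe sets fell, by -0.68 to -0.87. It was lost without replicate 1 of any of the 4 testis groups, with changes between -0.78 and -0.58. In the ovary the averaged change was -0.16 (adjusted p = 0.502), and the gonads were not shown to differ (adjusted p = 0.152). E2f6, a repressor of another kind, passed no test.

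The promoters of members that fell are shown because E2F genes and Cdk1 are known targets of E2F itself. They come from RefSeq on build GRCm38.p6 and cover 220 bases up to the base before the start site, printed from 5' to 3' on the gene's strand. Capitals mark the E2F letters searched, TTTCCCGC, TTTCGCGC, TTTGCCGC and TTTGGCGC, on either strand. E2f7 lies at chr10:110745219-110745438 on the plus strand, and E2f3 at chr13:29986064-29986283, Cdk1 at chr10:69352913-69353132 and Ccne1 at chr7:38107491-38107710 on the minus strand. These 4 were picked after the matches had been seen, 3 with a match and Ccne1 without one.
E2f7: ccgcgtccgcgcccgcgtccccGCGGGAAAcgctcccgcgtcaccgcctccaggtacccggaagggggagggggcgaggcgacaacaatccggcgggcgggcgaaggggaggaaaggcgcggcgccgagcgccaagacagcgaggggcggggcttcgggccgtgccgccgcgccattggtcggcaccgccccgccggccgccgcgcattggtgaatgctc
E2f3: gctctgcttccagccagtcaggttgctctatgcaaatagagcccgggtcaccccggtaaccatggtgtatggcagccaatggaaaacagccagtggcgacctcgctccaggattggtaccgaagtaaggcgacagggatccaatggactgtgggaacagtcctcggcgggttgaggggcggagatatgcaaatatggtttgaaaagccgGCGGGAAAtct
Cdk1: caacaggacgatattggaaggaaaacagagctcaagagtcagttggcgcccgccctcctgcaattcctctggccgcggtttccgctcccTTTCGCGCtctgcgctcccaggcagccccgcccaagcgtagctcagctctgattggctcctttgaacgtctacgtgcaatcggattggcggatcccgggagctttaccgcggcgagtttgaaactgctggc
Ccne1: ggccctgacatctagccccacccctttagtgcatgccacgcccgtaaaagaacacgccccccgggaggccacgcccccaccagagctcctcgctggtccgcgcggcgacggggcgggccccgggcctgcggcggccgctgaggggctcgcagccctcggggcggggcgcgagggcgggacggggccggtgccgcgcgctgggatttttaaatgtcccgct

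The match began 198 bases before the start in E2f7, 131 in Cdk1 and 11 in E2f3. RefSeq promoters were matched for 36 of the 48 members, 43 promoters in all, and 6 of these (14%) held the E2F letters in the 250 bases before the start, against 611 of 32851 promoters of all genes (1.86%). The other matches were in Cdk2 and Rbl1, which passed no test of expression, and in Cdkn2a, which was too dim to be tested. TTTGAA, the letters of the cell cycle homology region (CHR), occurred in 23.3% of member promoters and 16% of all, and CCAAT, in either orientation, in 44.2% and 33.8%. The printed promoters of Cdk1 and E2f3 hold all 3 kinds of letters. Another RefSeq promoter of E2f3, which was not printed, holds none of them. In member promoters no E2F match overlapped a CHR or CCAAT match. E2f8, which fell with E2f7, had no E2F letters in this window. A match describes letters only.

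Rb1, the founding pocket protein, had its highest group means in the late testis. It read 471 and 776 in wild-type and 553 and 820.4 in knock-out testis at E14.5, against 347 and 329.8 in wild-type and 478 and 419 in knock-out testis at E12.5. The wild-type groups did not overlap, nor did the knock-out groups, but late arrays of a group lay far apart. The averaged testis change was 0.71 (SE 0.18, limma adjusted p = 0.0189). Ovary arrays of E14.5 read 318 to 423, below every late testis array, a difference of 0.83 (SE 0.18, adjusted p = 0.0094). The stage change of the testis exceeded that of the ovary by 0.98 (adjusted p = 0.0358).

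The Rb1 arrays at 776 and 820.4 were the 2 testis arrays with female RNA. Without the E14.5 arrays that held opposite-sex RNA the averaged testis change was 0.39 (limma adjusted p = 0.214), the difference from the ovary 0.57 (adjusted p = 0.109) and the difference of stage changes 0.72 (adjusted p = 0.10). Leaving out single arrays gave 0.53 to 0.89 for the testis change, which was lost without either early wild-type array or replicate 2 of either late group. It gave 0.65 to 1.01 for the difference from the ovary, which was lost without late knock-out replicate 2. Rbl1 (p107) lay between 370.3 and 557 and passed no test. Rbl2 (p130), the pocket protein of resting cells, rose in the ovary by an averaged 0.75 (adjusted p = 0.0379), from 296, 217, 99.7 and 262 to 392, 312, 309.9 and 373, wild-type arrays first. The array at 99.7 was the one with the highest 3'/5' ratio, and without the high-ratio arrays the change was 0.30 (adjusted p = 0.229). Over single left-out arrays it ranged from 0.41 to 1.09, with the call lost in 5 of 8 cases.

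Loss of Wnt4 moved no member past the threshold. Limma called none of 45 in ovary at E12.5 (0.276% of all genes were called), ovary at E14.5 (0.543%), testis of E12.5 (0.0243%) or testis of E14.5 (0.00811%). In that order 2, 4, 2 and 1 members had an unadjusted p under 0.05, as had 7.98%, 5.72%, 11% and 1.48% of all genes. The members' median differences of knock-out from wild type were -0.03, 0.01, 0.12 and 0.01 in that order, against 0.03, -0.02, 0.10 and 0.03 for all genes. In the early ovary the extremes were E2f5 at -0.78 (1094 and 949 in wild type, 470 and 744 in knock-out, adjusted p = 0.303) and Cdkn2c at 0.98 (adjusted p = 0.366). In the late ovary they were Cdkn1a at -1.32 and Cdkn2d at 0.50 (adjusted p = 0.63). In the testis they were Cdk5 at -0.65 (adjusted p = 0.307) and E2f7 at 0.50 early, and Cdk6 at -0.46 and Cdkn2c at 0.53 late. Ccnd1 differed by -0.03 and 0.06 in early and late ovary and by -0.38 and -0.41 in early and late testis. Its 2 other probe sets, not tested singly, gave -0.81 and -0.71 in the early and -0.73 and -0.69 in the late testis. In the ovary they gave 0.32 and -0.17 early and -0.46 and -0.08 late. With a median SE of 0.21, the 95% interval stayed within a 2-fold change in either direction for 40, 39, 38 and 43 of the 45 members. Effects within these intervals were not detectable with these arrays.

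**Figure D4:**
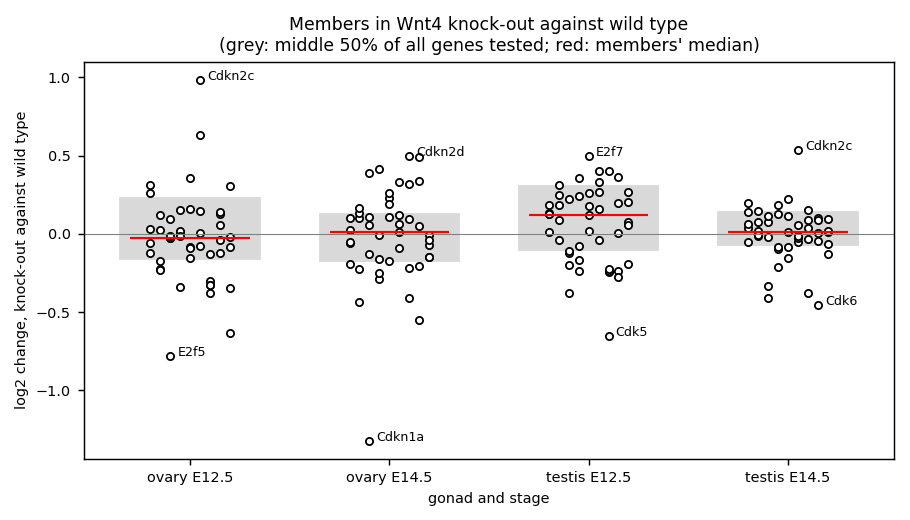
Log2 difference of Wnt4 knock-out from wild type for the 45 tested members (points) in each gonad and stage, with the members' median (red) and the middle 50% of all tested genes (grey). The medians lie between -0.03 and 0.12, and the lowest point is Cdkn1a in the late ovary at -1.32. No point passed the adjusted threshold.

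Wild-type and knock-out stage changes share no arrays, so their directions can be set side by side. In the ovary 31 of 45 members (68.9%) changed in the same direction in both genotypes, against 76.6% of all genes. In the testis 38 of 45 did (84.4%), against 72.7% of all genes. In wild-type ovary 7 members (15.6%) were higher and 13 (28.9%) lower at E14.5 without overlap of arrays, where 17.8% and 22% of all genes were. In knock-out ovary 10 (22.2%) were higher and 18 (40%) lower, where 24.1% and 37.8% of all genes were. In wild-type testis 20 (44.4%) were higher and 17 (37.8%) lower, where 40.2% and 29.2% of all genes were. In knock-out testis 11 (24.4%) were higher and 17 (37.8%) lower, where 23.9% and 25.9% of all genes were. The share of members that were lower thus lay above that of all genes in both genotypes of both gonads, and these differences were not tested. Shares in wild-type testis rest on counting the almost identical arrays of E12.5 as 2 samples.

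Other genes of the cycle, from lists assembled with earlier results of these data known, were mixed as well. Of 17 tested genes of DNA replication, 3 rose and 2 fell in the ovary average and 1 rose and 2 fell in the testis average. Orc1, a subunit of the origin recognition complex, rose by 1.01 in the ovary (limma adjusted p = 0.00432), and Gmnn, the inhibitor of licensing, changed by -0.78 in the testis (adjusted p = 0.00134). Of 18 mitosis genes, 2 rose and 2 fell in the ovary and 2 rose and 1 fell in the testis. Bub1, a checkpoint kinase, rose by 0.82 in the ovary (adjusted p = 0.000802), and so did Ccnb1ip1, whose product acts in meiotic crossing-over, by 3.54 (adjusted p = 3e-05). Of 16 tested regulators of CDKs, 1 rose and 1 fell in the ovary and 1 rose and 3 fell in the testis. Mycn, which drives proliferation, changed by -0.68 in the ovary and -0.61 in the testis (adjusted p = 0.00292 and 0.0063). Limma called 23.3% of all genes in the ovary average and 18% in the testis average. The shares called were 29.4% and 17.6% for replication, 22.2% and 16.7% for mitosis and 12.5% and 25% for CDK regulators. The named changes are thus about single genes.

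Meiosis genes and markers of several cell types moved with stage beside these results. All 10 of 10 meiosis genes listed rose in the ovary average, with a median log2 change of 4.92. In the testis average 6 of 10 rose, with a median of 1.80. Some, such as Dmc1 and Spo11, read at most 8.57 in every E12.5 array and entered the test only through E14.5 arrays. Rises of such genes are given as a description. Summed intensity of the 10 genes was 5729 to 11500 in ovary and 1534 to 4443 in testis arrays at E14.5, and 144 to 544 at E12.5. In the late testis the sums were 4443 and 3903 in the wild-type and knock-out replicates 2, which held 22.9% and 16.6% female RNA, and 1534 and 2543 in replicates 1. Stra8, which starts the meiotic programme, read 103.5 and 64.2 in the former and 5.55 and 9.88 in the latter. Among the late ovary arrays the lowest sum belonged to wild-type replicate 2, which also had the lowest late ovary value of Ccne2. Of 8 germ cell genes listed, 2 rose and 3 fell in the ovary average, and 3 rose and 1 fell in the testis average. Limma called 23.3% and 18% of all genes there. Summed intensity of the 8 genes was 2686 to 3809 in the early and 3240 to 7594 in the late ovary arrays. In the testis it was 2826 to 5628 early and 7105 to 10100 late. The part of germ cell numbers in the changes of Ccne2, Ccnd1 and the E2F genes was not tested.

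In the ovary average 5 of 10 pre-granulosa genes rose (median 0.87). Of 8 Sertoli genes 3 fell (median -0.63), and of 5 endothelial genes 3 fell (-0.61). Falls were also called for 3 of 4 erythroid genes (-1.26) and 3 of 4 chromaffin and neuron genes (-2.75). Summed endothelial intensity did not fall, with 1405 to 1817 in the early and 1355 to 2205 in the late ovary arrays. In the testis average 4 of 4 fetal Leydig genes rose (median 3.96). Of 7 male germ cell genes 5 rose and 1 fell (median 2.58). Decreases were called for 2 of 4 erythroid genes (-0.84) and 4 of 4 chromaffin and neuron genes (-1.60). Th, Dbh and Chga read at most 8.41 in every E14.5 array and entered the test only through E12.5 arrays. The male germ cell genes Dnmt3l and Piwil4 entered it only through E14.5 arrays. Changes of these genes are given as a description. Of all genes, limma called 23.3% in the ovary average and 18% in the testis average. Summed erythroid intensity was 34270 to 42480 in the early and 13190 to 23870 in the late arrays, and summed fetal Leydig intensity 291 to 1341 in the early and 6969 to 12410 in the late testis arrays. The part of these cell types in the members' changes was not tested.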

How the data were processed

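The authors deposited linear probe-set intensity values for 45101 probe sets on 16 arrays, made with MAS5 per the submitters' processing notes, whose version and scaling were not given. Intensities became log2(intensity + 4). Probe sets had to exceed the median of their array in 2 or more arrays (25620 did), and each gene was read from its brightest kept set under the platform annotation of 2016. Values of all arrays were fitted with 8 group means in limma 3.58.1 (R 4.3.3) with an intensity trend. Two-sided p-values were adjusted by Benjamini-Hochberg over the 12336 genes, and 0.05 was the threshold. The code was tested on simulated data, and figures were drawn in Python 3.11.15. Members and lists were chosen with earlier results of these data known. Genotype averages and a crossed replicate pairing were added once the data were known. Members described array by array are Ccnd1, those called in 1 of 14 contrasts and others of their role; members called only in an average were added after their values were seen, and genes outside the family came from the lists. Same-numbered arrays did not deviate in a common direction (correlations from -0.66 to 0.582 over 28 pairs of groups, median -0.007, 7 over 0.1). Numbers were therefore taken not to pair samples. Some pairs of groups deviated together and some in opposition, and the crossed pairing took up this pattern. Alternatives covered the pseudocount (1 and 16), filter, normalization, probe-set summary, trend, array weights, replicate block and left-out arrays.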

Additional observations from a re-analysis of the deposited data

Results flagged for a closer look

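The change from E12.5 to E14.5 differed between testis and ovary for 5 members in the average over genotypes, a comparison added after the data had been seen (limma, Benjamini-Hochberg adjusted). Testis minus ovary, the log2 difference was -2.15 for Ccne2 (adjusted p = 0.00828, range over alternatives 0.00371 to 0.0726), -1.02 for Cdk7 (adjusted p = 0.018, range 0.0118 to 0.668) and 1.78 for Cdkn1a (adjusted p = 0.0345, range 0.0183 to 0.141). It was 0.98 for Rb1 (adjusted p = 0.0358, range 0.0337 to 0.10) and -1.38 for Cdkn3 (adjusted p = 0.0386, range 0.0308 to 0.229). Leaving out 1 array at a time kept the Ccne2 call in 16 of 16 cases, and the Cdk7, Cdkn1a, Rb1 and Cdkn3 calls in 14, 5, 6 and 5 of 16. Within wild type or within knock-out alone limma called none of these (8 and 7 members at an unadjusted p under 0.05).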

How the results depend on the processing

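Each group had 2 arrays, which limits all counts of members called (limma, adjusted p under 0.05); dim members such as Cdkn2b, Cdkn2c and Cdk18 lay near background. No called change of a member reversed under the alternatives run; changes that were not called, and genes outside the family, were not compared across settings. With 1 array left out at a time, members called ranged from 0 to 9 for stage in wild-type ovary, 0 to 2 in wild-type testis, 0 to 11 in knock-out ovary and 0 to 0 in knock-out testis. They ranged from 0 to 6 and 0 to 2 for sex in wild type at E12.5 and E14.5, 0 to 7 and 0 to 0 in knock-out, 0 to 3 for knock-out in ovary at E12.5, and 0 to 0 for knock-out in ovary at E14.5 and in testis at both stages. The interactions gave 0 to 3 in wild type and 0 to 4 in knock-out. The averages gave 7 to 19 (ovary stage), 0 to 9 (testis stage), 1 to 15 (sex at E12.5), 2 to 5 (sex at E14.5) and 1 to 12 (interaction).

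The 1 member called for stage in wild-type ovary became 0 with the mean of probe sets, no intensity trend, array weights, almost identical arrays averaged, high 3'/5' arrays left out or E14.5 opposite-sex arrays left out. For stage in wild-type testis 1 became 2 with quantile normalization, 20 with array weights, and 0 with the mean of probe sets, identical arrays averaged or opposite-sex arrays out. For stage in knock-out ovary 6 became 2 without high 3'/5' arrays. For sex in wild type, 0 became 1 with array weights at E12.5, and 1 became 0 at E14.5 with log2(intensity + 16), no filter, a stricter filter, the mean of probe sets, no trend, array weights, averaging or opposite-sex arrays out. For sex in knock-out at E14.5, 1 became 4 with array weights and 0 with no trend, averaging or opposite-sex arrays out. The knock-out interaction went from 0 to 1 with array weights. Of the averages, ovary stage went from 11 to 6 without high 3'/5' arrays, and testis stage from 10 to 18 with array weights, 0 with identical arrays averaged and 3 without opposite-sex arrays. Sex at E12.5 went from 4 to 2 with no filter or the mean of probe sets, to 1 with no trend, array weights or averaging, and to 0 without high 3'/5' arrays. Sex at E14.5 went from 4 to 2 without opposite-sex arrays, and the interaction from 5 to 2 with averaging or without opposite-sex arrays and to 0 without high 3'/5' arrays. The cause of these shifts was not tested. Shares of all genes called under the alternatives are not given here, so these counts of members are not set against them.

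With the replicate number as a block, sex at E12.5 averaged over genotypes went from 4 to 1, and every other count stayed within 1.5 times. A crossed pairing, chosen after seeing the data, gave 3 for stage in wild-type testis, 10 in knock-out ovary, 1 for sex at E12.5 in wild type and 1 in knock-out, 8 for the averaged sex comparison of E12.5 and 8 for the averaged interaction.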
